A study of Mus musculus with 192 samples.

Results

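The genes examined here are 49 components of the actin cytoskeleton of the mouse, with zyxin (Zyx) at their head, taken by name from a list of actins, filament-binding proteins, adhesion-site proteins, membrane linkers, myosin II chains and signalling genes. All 49 had a row among the 23481 genes of the deposited table, and 46 of them had enough counts to be tested. They were followed in bone marrow-derived dendritic cells, grown in 15 ng/mL GM-CSF from the marrow of C57BL/6J mice (females, aged 6 to 8 weeks) and exposed for 6 h, at 100000 cells per well, to ligands of pattern recognition receptors. The ligands are named in the labels as PAM, LPS (the bacterial lipopolysaccharide sensed by TLR4), HMW, Zymosan depleted (Zymosan below), SeV, 3',3'-cGAMP (cGAMP below, a cyclic dinucleotide sensed by STING) and CpGB. Each was given alone (7 groups), with 1 other (21 pairs) or with 2 others (35 triplets), and 1 group, labelled Ctrl, names no ligand; each of these 64 groups has 3 libraries. All groups come from this 1 culture type, the labels name no genetic change, the doses are not given in the sources used here, and every comparison is at the single time of 6 h.

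Actin filaments grow from monomers that profilin and the thymosins hold in store, are branched by the Arp2/3 complex, capped at their fast-growing end, bundled or crosslinked by proteins such as fascin, plastin and alpha-actinin, and taken apart by cofilin and gelsolin. Zyxin is a LIM-domain protein that sits on filaments at adhesion sites and brings Ena/VASP proteins to them; vinculin and talin link the same sites to integrins. Dendritic cells that meet a microbial ligand lose their adhesion structures, stop taking up particles and grow the fascin-rich dendrites of the mature state, which is the setting in which these genes are usually studied.

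Serum response factor, a transcription factor that is controlled by the pool of actin monomer, binds the CArG box, a motif of 10 bases, and many cytoskeletal genes are known targets. Promoter windows of 250 bases before to 50 bases after the start site, from RefSeq on GRCm38.p6, could be matched to 45 members, and a CArG box on either strand was present in 5 of these members. This was 9.09% of the 55 member windows, against 1.63% of all 32851 windows of the same length. Actb, Cotl1, Marcks and Rac2 were not matched. The 5 matches are shown because they are the only ones in the windows searched; capitals mark the motif and each sequence is written 5′ to 3′ on the strand of its gene.
Actg1 (chr11:120348566-120348595, minus strand, match starting 90 bases before the start site): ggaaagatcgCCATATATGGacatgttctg
Arpc4 (chr6:113377863-113377882, plus strand, 250 bases before): CCTAATTTGGtgcccaacct
Cnn2 (chr10:79988534-79988563, plus strand, 56 bases before): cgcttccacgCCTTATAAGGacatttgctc
Myl6 (chr10:128493040-128493069, minus strand, 50 bases before a start site that lies 877 bases inside the gene): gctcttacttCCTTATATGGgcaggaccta
Vcl (chr14:20929161-20929190, plus strand, 227 bases before): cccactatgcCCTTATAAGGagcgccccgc
The window of Zyx, whose gene lies on chromosome 6 from 42349511 to 42360213 (GRCm38.p6, protein-coding), held no such run of letters. Among the 5 genes with a match, Vcl and Actg1 changed when LPS was added to cGAMP, whereas Arpc4, Cnn2 and Myl6 did not pass the test there (log2 fold changes of -0.40, -0.26 and -0.07). In that comparison 8.2% of all tested genes rose and 4.79% fell, and 15 of the 46 tested members changed. The Vcl call was lost when some single libraries were left out. A match describes the letters of the window only.

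Libraries held 46564 to 610234 UMIs, with a median of 171616, and the 3 Ctrl libraries held 61823 to 89530. Together the members made up 5.35% to 10.1% of the UMIs of a library. Levels are given per library as TMM-scaled CPM (counts scaled to a common library total) and can be compared between libraries but not between genes, because transcripts differ in how well they are counted. A gene is said to have risen, fallen or changed where its p from the quasi-likelihood F-test of edgeR, adjusted by the method of Benjamini and Hochberg over the 4720 genes tested, was under 0.05; fold changes are on the log2 scale. The labels do not say whether the 3 libraries of a group came from separate cultures or animals, so p-values measure the spread between these libraries only. All 8 dendritic cell markers examined were detected (summed level 6577 CPM in Ctrl and up to 9462 in a treated group), and so were the 5 macrophage markers that had a row, led by Lyz2 (11922 in Ctrl, the highest of all groups, down to 6461). Summed neutrophil markers lay between 519.9 and 961 CPM and those of T, B or NK cells between 0 and 6.58, with Cd3e at 0. Summed platelet or megakaryocyte markers, led by Pf4, ranged from 201 to 509 CPM over the groups, with 416 in Ctrl, 248 with LPS, 268 with cGAMP and 272 with both; the 1 of them that was tested changed with LPS, SeV and cGAMP against Ctrl, and its part in the results was not tested. In a bulk library, fewer cells of a type and less RNA per cell cannot be told apart.

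Zyx was lowest in Ctrl and varied 5.22-fold between group means. The 3 Ctrl libraries stood at 346, 399 and 451 CPM, and the highest mean, 2083 CPM, was that of HMW with SeV (libraries at 2004, 2244 and 2002). SeV alone came next with 2208, 1993 and 1853 CPM, and the libraries of these 2 groups overlapped each other but no library of the group that followed. That gap was the only 1 of the 63 steps in the order of the 64 means at which the libraries of neighbouring groups did not overlap. The 11 groups with SeV but neither LPS nor cGAMP had means of 981 to 2083 CPM, and the 11 with cGAMP but neither LPS nor SeV 750.3 to 1590.1. With LPS but neither of the others, 11 groups ran from 756 to 1274. The 5 groups that joined LPS with cGAMP, without SeV, were lower, from 501 to 685 CPM, and the triplet of LPS, SeV and cGAMP stood at 665. Groups with both SeV and cGAMP but no LPS reached 689 to 1622 CPM. Zyx was covered by a median of 150 UMIs per library, with 25 the lowest count in any library.

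**Figure D1:**
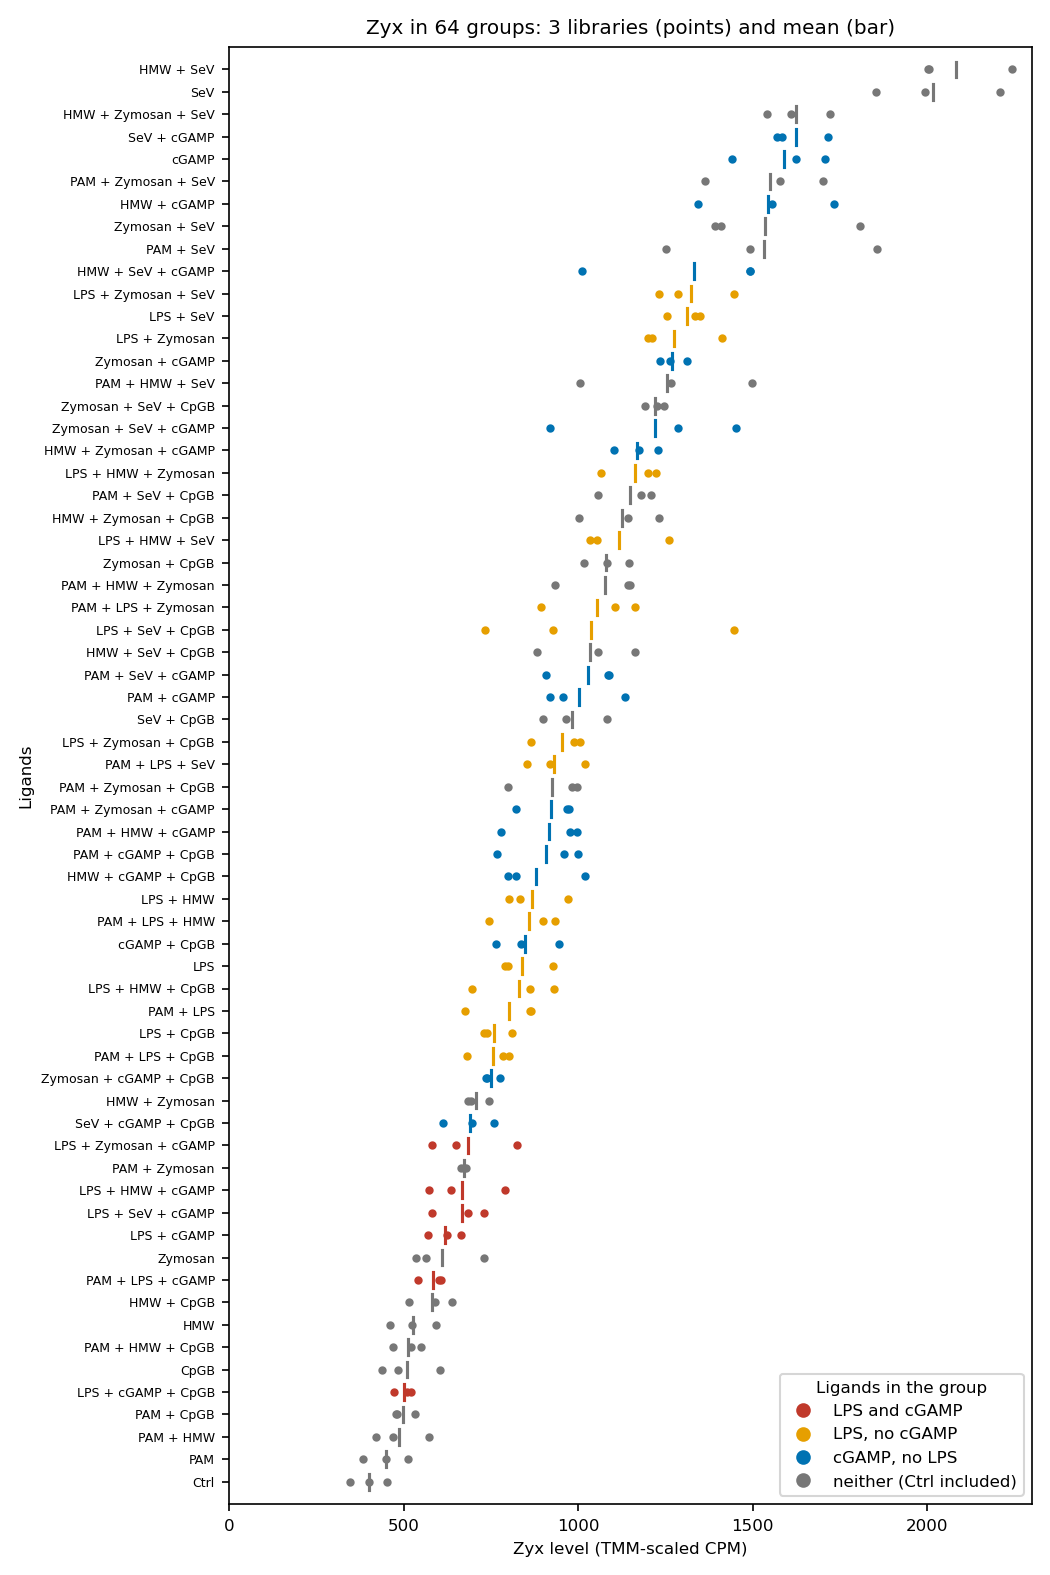
Zyx level (TMM-scaled CPM, x axis) in each of the 64 groups (y axis, ordered by mean), with the 3 libraries as points and the mean as a bar, coloured by whether LPS, cGAMP, both or neither were present. Groups with both LPS and cGAMP lie in the lower part, at means of 501 to 685 CPM, while cGAMP alone is at 1590.1 and SeV alone at 2018.

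The members called with single ligands were shared in part. Fscn1, Marcksl1, Actr2 and Arhgap25 were called with PAM, LPS, SeV, cGAMP and CpGB alike. Single ligands were not tested against each other. Against Ctrl, 14 members rose and 5 fell with PAM, where 9.68% of all tested genes rose and 7.78% fell. With LPS 15 rose and 9 fell (17.1% and 12.9% of all tested genes), with Zymosan 11 and 2 (6.23% and 2.86%), with SeV 11 and 7 (12.2% and 7.25%), with cGAMP 10 and 9 (13.5% and 8.16%) and with CpGB 12 and 7 (12.5% and 8.92%). With HMW 1 member changed, the GTPase gene Rhoa, which rose, in a comparison in which 1.19% of all genes rose and 0.0212% fell. Among these calls, a log2 fold change of 1 or more in size was reached by 7 members with PAM (13.9% of all genes), 12 with LPS (24.2%), 3 with Zymosan (6.25%), 6 with SeV (15.6%), 7 with cGAMP (17.6%) and 9 with CpGB (17%); Rhoa with HMW did not reach it (0.975%). The median log2 fold change of the members was 0.14 for PAM, 0.12 for LPS, 0.12 for HMW, 0.12 for Zymosan, 0.10 for SeV, 0.01 for cGAMP and 0.25 for CpGB, beside 0.03, -0.06, 0.03, 0.02, -0.08, -0.09 and -0.03 over all tested genes. The balance of rises and falls depended on the scaling, because the Ctrl libraries had a mean TMM factor of 1.27. It also depended on the count filter and on single Ctrl libraries. With no count filter, 17 rose and 5 fell with LPS, 13 and 1 with SeV and 13 and 1 with cGAMP. Without the second Ctrl library the splits were 10 and 1 for SeV and 10 and 3 for cGAMP. With library size alone, which shifts the median of all genes by -0.186 on the log2 scale (median over the 7 ligands), the splits became 11 up and 7 down for PAM, 8 and 16 for LPS, 4 and 4 for Zymosan, 6 and 10 for SeV, 6 and 15 for cGAMP, and 8 and 13 for CpGB. With RLE factors (a shift of -0.121) they were 11 and 11 for LPS, 4 and 4 for Zymosan, 8 and 11 for cGAMP and 10 and 9 for CpGB, and with DESeq2 10 and 6 for PAM, 11 and 10 for LPS, 7 and 7 for SeV and 7 and 11 for cGAMP. The calls that held in edgeR with both other scalings, in DESeq2 and without any 1 Ctrl library numbered 13 of 19 for PAM, 13 of 24 for LPS, 3 of 13 for Zymosan, 7 of 18 for SeV, 8 of 19 for cGAMP and 12 of 19 for CpGB; Rhoa with HMW was not among such calls, and DESeq2 and RLE factors each gave 1 fall with HMW in its place (Actg1, -0.27, and Arhgap25, -0.80). DESeq2 lost 25 of the single-ligand calls: Actb, Actn1, Marcks and Pfn1 with PAM, Tpm3, Tpm4, Cfl1 and Actr3 with LPS, Rhoa with HMW, Zyx, Vcl, Lcp1, Vim, Cfl1, Actr2 and Iqgap1 with Zymosan, Vcl, Vim, Msn and Capza2 with SeV, Vcl, Msn and Capza2 with cGAMP, and Tpm4 and Actr3 with CpGB. All 3 other settings also called falls of Tln1 (-0.70 to -0.69) and Tmsb4x (-0.34) with Zymosan, Cotl1 with cGAMP (-0.68 to -0.56) and Flna with CpGB (-0.65 to -0.53). Leaving out 1 Ctrl library reduced the Zymosan calls to 5 (the first) or 7 (the third), the SeV calls to 11 (the second) and the cGAMP calls to 11 (the first) or 12 (the third). All 7 comparisons share the Ctrl libraries.

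**Figure D2:**
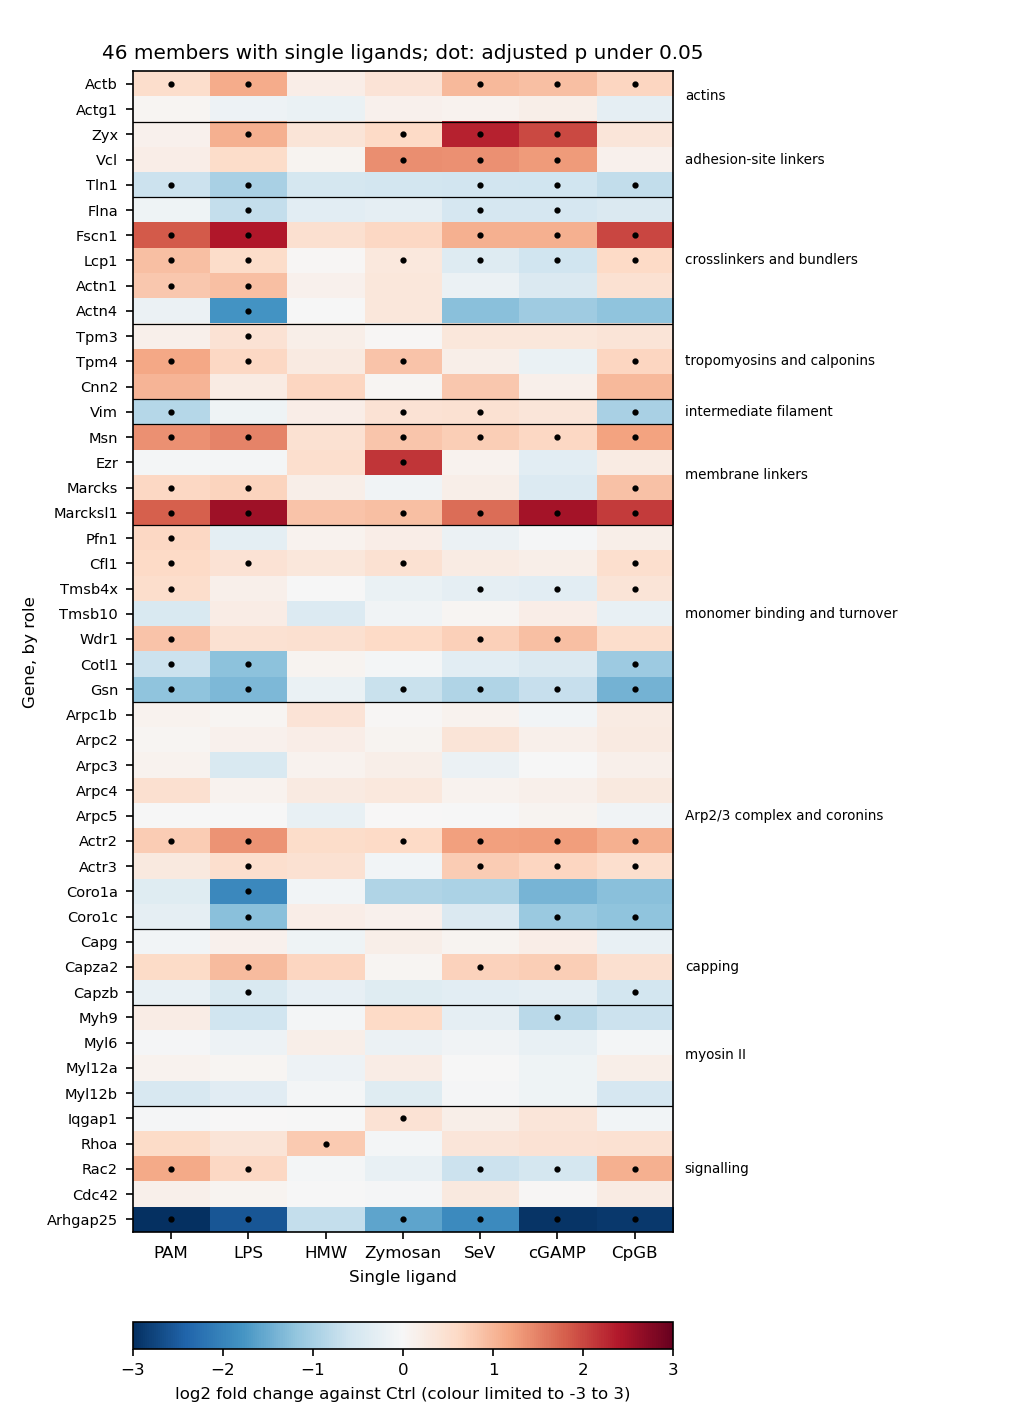
Log2 fold change against Ctrl (colour, limited to 3 in either direction) of the 46 tested members (y axis, grouped by role) for each single ligand (x axis), with a dot where the adjusted p was under 0.05. Marcksl1, Msn, Actr2 and Fscn1 are raised across most columns, Arhgap25 and Gsn are lowered, Zyx is highest with SeV and cGAMP, and Vcl is raised with Zymosan, SeV and cGAMP; 7 of the 18 SeV calls and 8 of the 19 cGAMP calls hold in every scaling and without any 1 Ctrl library.

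Of the actins, cytoplasmic beta-actin (Actb) rose with 5 ligands. Its libraries read 19156, 23485 and 16898 CPM in Ctrl, 42758, 46077 and 40346 with LPS and 40079, 40408 and 35373 with SeV. Every LPS and SeV library was above every Ctrl library. The log2 fold changes were 1.12 (SE 0.15, edgeR adjusted p = 1.25e-10) with LPS, 0.96 with SeV, 0.91 with cGAMP, 0.65 with CpGB and 0.54 with PAM; the PAM value did not pass without the third Ctrl library (0.45) or with other scalings (0.35 to 0.40). Gamma-actin (Actg1), whose transcript is a close relative of Actb, read 5000.2, 5238 and 4877 CPM in Ctrl and 3863, 4982 and 4676 with LPS, and its 7 log2 fold changes of -0.26 to 0.18 did not pass the test in edgeR with TMM factors. With DESeq2, RLE factors and library size alone the Actg1 values with LPS (-0.46 to -0.30) and CpGB (-0.48 to -0.36) passed, and with DESeq2 that with HMW (-0.27). How reads that fit both actin genes were assigned is not given in the sources used here.

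At adhesion sites, Zyx rose with LPS, Zymosan, SeV and cGAMP. With LPS the libraries read 789, 798 and 926 CPM, with cGAMP 1439.6, 1624 and 1706 and with Zymosan 534, 729 and 564. All of them lay above the 3 Ctrl libraries, and every cGAMP library lay above every LPS and Zymosan library. The log2 fold changes were 2.31 (SE 0.17, edgeR adjusted p = 1.3e-28) with SeV, 1.98 (SE 0.17, edgeR adjusted p = 3.7e-22) with cGAMP, 1.06 (SE 0.18, edgeR adjusted p = 2.57e-07) with LPS and 0.60 (SE 0.19, edgeR adjusted p = 0.0277) with Zymosan. The Zymosan call was lost in DESeq2 (0.47), with RLE factors (0.47), with library size alone (0.46) and without the first (0.51) or the second (0.63) Ctrl library. PAM (0.14), HMW (0.38) and CpGB (0.35) did not pass.

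Vcl, the gene of vinculin, was raised by SeV, cGAMP and Zymosan, on few counts (a median of 9 UMIs per library). It read 41.6, 24.9 and 48 CPM in Ctrl, 105, 153 and 65.7 with SeV, 110.0, 58.4 and 123 with cGAMP and 73.6, 102 and 121 with Zymosan. All SeV libraries were above all Ctrl libraries. All Zymosan libraries were above all Ctrl libraries. The log2 fold changes of 1.38 with SeV, 1.27 with cGAMP and 1.39 with Zymosan passed, but none did in DESeq2 (1.18 to 1.30) or once any 1 Ctrl library was left out (1.14 to 1.68). Tln1, the gene of talin, which couples integrin tails to actin, went the other way. Its Ctrl libraries read 429, 437 and 480.1 CPM and its LPS libraries 216, 244 and 224. All Ctrl libraries were above all LPS libraries. Tln1 fell with LPS (log2 fold change -0.98, SE 0.21, edgeR adjusted p = 6.97e-05) and, with smaller values, with CpGB (-0.74), PAM (-0.63), cGAMP (-0.60) and SeV (-0.58). The SeV and cGAMP calls were lost without any 1 Ctrl library (-0.45 to -0.58), the PAM call without the second or the third (-0.62 and -0.55) and the CpGB call without the third (-0.58). In the test of any difference between the 64 groups Tln1 did not pass (edgeR adjusted p = 0.12).

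Among crosslinkers and bundlers, Fscn1, the gene of the dendrite bundler fascin, rose with 5 ligands. It read 111, 87.3 and 86.4 CPM in Ctrl, 417, 521 and 532 with LPS and 156, 228 and 196 with cGAMP. All LPS and cGAMP libraries were above all Ctrl libraries, and the lowest LPS library was above the highest cGAMP library. Log2 fold changes were 2.39 (SE 0.27, edgeR adjusted p = 9.37e-15) with LPS, 2.02 with CpGB, 1.84 with PAM and 1.07 and 1.07 with SeV and cGAMP. Lcp1, which encodes the leukocyte bundler L-plastin, moved in both directions. Its libraries read 1288, 1522 and 1767 CPM in Ctrl, 2861, 3107 and 2661 with PAM and 944, 1023 and 1068 with cGAMP. Every PAM library was above and every cGAMP library below the 3 Ctrl libraries. Lcp1 rose with PAM (0.90, SE 0.11, edgeR adjusted p = 1.76e-13), CpGB (0.60), LPS (0.56, not with library size alone, 0.26) and Zymosan (0.32), and fell with cGAMP (-0.60, SE 0.12, edgeR adjusted p = 8.31e-06) and SeV (-0.39). The Zymosan call was lost with every other scaling (0.18 to 0.19) and without the first or the second Ctrl library (0.21 and 0.35), and the SeV call without the second or the third (-0.33 and -0.20). Actn1, the gene of an alpha-actinin, rose with LPS (0.91) and PAM (0.80, but 0.66 and not passing without the third Ctrl library). Its relative Actn4 fell with LPS (-1.80), a call lost without the first Ctrl library (-1.57). Flna, the gene of the network crosslinker filamin A, read 845, 973 and 787 CPM in Ctrl and 514, 493 and 555 with LPS. It fell with LPS (-0.73, SE 0.17, edgeR adjusted p = 0.000241), and its falls with SeV (-0.51) and cGAMP (-0.50) were lost without any 1 Ctrl library (-0.52 to -0.33).

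The tropomyosin genes Tpm3 and Tpm4, whose products coat filaments, rose where they passed. Tpm3 rose with LPS (0.43, 0.13 to 0.29 and not passing with other scalings). Tpm4 rose with PAM (1.15, SE 0.21, edgeR adjusted p = 2.6e-06), and its calls with Zymosan (0.85), CpGB (0.65) and LPS (0.62) each failed without at least 1 Ctrl library (0.76 without the third for Zymosan, 0.61 without the second for CpGB, 0.54 without the second for LPS). Vim, the gene of the intermediate filament protein vimentin, divided the ligands. Its libraries read 1191, 1285 and 1075 CPM in Ctrl, 584, 794 and 567 with PAM, 592, 531 and 659 with CpGB and 1797, 1518 and 1557 with SeV. The PAM and CpGB libraries lay below all Ctrl libraries. Vim fell with CpGB (-0.98, SE 0.16, edgeR adjusted p = 1.33e-07) and PAM (-0.85, SE 0.16, edgeR adjusted p = 4.77e-06), while its rises with SeV (0.46) and Zymosan (0.43) were lost with every other scaling (0.27 to 0.34).

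Of the 4 membrane linkers, Marcksl1 and Msn rose with 6 ligands each, Marcks with 3 and Ezr with 1. Marcksl1, which encodes a MARCKS-related protein that binds actin and the plasma membrane, read 152, 187 and 211 CPM in Ctrl, 1012, 1125 and 1119 with LPS and 1146, 1058 and 1000.4 with cGAMP. Every library of either ligand was above all 3 Ctrl libraries. Its log2 fold changes were 2.54 (SE 0.22, edgeR adjusted p = 4.17e-22) with LPS, 2.51 (SE 0.23, edgeR adjusted p = 6.02e-21) with cGAMP, 2.11 with CpGB, 1.78 with PAM, 1.68 with SeV and 0.90 with Zymosan (not passing without the first Ctrl library, 0.79). Msn, the gene of moesin, rose with the same 6 ligands, from 0.61 with cGAMP, a call lost without any 1 Ctrl library (0.66 to 0.70), to 1.49 with LPS, and its SeV value (0.74) did not pass with library size alone (0.55). Ezr, the gene of the related linker ezrin, rose with Zymosan. It read 27.7, 24.9 and 38.4 CPM in Ctrl and 156, 141 and 131 with Zymosan. All Zymosan libraries were above all Ctrl libraries. Its log2 fold change was 2.15 (SE 0.45, edgeR adjusted p = 0.000178), and its other 6 values of -0.32 to 0.51 did not pass. Marcks rose with CpGB (0.88), LPS (0.67) and PAM (0.62), the latter 2 not with library size alone (0.37 and 0.44).

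Genes of monomer binding and filament turnover gave a mixed picture. Gsn, the gene of gelsolin, which severs and caps filaments, read 416, 524 and 384 CPM in Ctrl, 116, 148 and 208 with CpGB and 149, 177 and 179 with LPS. All Ctrl libraries were above all CpGB libraries. Gsn fell with CpGB (-1.41, SE 0.24, edgeR adjusted p = 2.12e-07), LPS (-1.36), PAM (-1.21), SeV (-0.90; -0.69 and not passing without the second Ctrl library), cGAMP (-0.68; -0.46 likewise) and Zymosan (-0.66, lost without any 1 Ctrl library, -0.73 to -0.48). Cotl1, the gene of coactosin-like protein, fell with LPS (-1.23, SE 0.18, edgeR adjusted p = 2.67e-09), CpGB (-1.09) and PAM (-0.65; -0.51 and not passing without the second Ctrl library). Wdr1, whose product helps cofilin to take filaments apart, rose with cGAMP (0.90), PAM (0.87) and SeV (0.71, not with library size alone, 0.52). The monomer-sequestering gene Tmsb4x read 10429.7, 8718 and 9928 CPM in Ctrl, 14467, 12926 and 14712 with PAM and 8207, 7099 and 7911 with cGAMP. Tmsb4x rose with PAM (0.53) and CpGB (0.39, not with library size alone, 0.17); its falls with cGAMP (-0.33) and SeV (-0.27) were lost without the first (-0.22 and -0.17) or the third Ctrl library (-0.23 and -0.19), and the SeV fall also without the second (-0.27). Cfl1, the gene of cofilin, rose with PAM (0.60), CpGB (0.50), Zymosan (0.45) and LPS (0.42), the last 2 not with RLE factors (0.32 and 0.28), and the CpGB value not with library size alone (0.28). Pfn1, the gene of profilin, rose with PAM (0.62, 0.48 and not passing with RLE factors), and Tmsb10 did not pass with any single ligand in edgeR with TMM factors (-0.45 to 0.21); its PAM value passed in DESeq2 and with both other scalings (-0.63 to -0.58).

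Within the Arp2/3 complex, the actin-related subunits changed and the others did not pass. Actr2 read 596, 723 and 461 CPM in Ctrl, 1339.9, 1507 and 1606 with LPS and 1385, 1391 and 1393 with cGAMP. All LPS and cGAMP libraries were above all Ctrl libraries. Its log2 fold changes were 1.35 (SE 0.16, edgeR adjusted p = 1.03e-13) with LPS, 1.25 with cGAMP, 1.23 with SeV, 1.07 with CpGB, 0.76 with PAM and 0.60 with Zymosan (not with other scalings, 0.46 to 0.47, or without the third Ctrl library, 0.46). Actr3 rose with SeV (0.77), cGAMP (0.64, 0.40 and not passing with library size alone), LPS (0.51) and CpGB (0.50), the LPS and CpGB calls being lost with RLE factors (0.37 and 0.40). The 5 other subunits in the list, Arpc1b, Arpc2, Arpc3, Arpc4 and Arpc5, did not pass with any single ligand, at log2 fold changes between -0.47 and 0.47, although Arpc3 passed with LPS under library size alone (-0.77) and Arpc2 with SeV (0.63) and CpGB (0.55) without the first Ctrl library. The coronin genes, whose products bind the complex, fell where they passed: Coro1a with LPS (-1.93; -0.89 and not passing without the second Ctrl library) and Coro1c with LPS (-1.24; -1.07 without the third), CpGB (-1.20; -1.11 and -0.99 without the first and the third) and cGAMP (-1.11, lost without any 1 Ctrl library, -1.14 to -0.93).

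Of the barbed-end cappers, Capza2 rose with LPS (0.95, 1.56 without the third Ctrl library), cGAMP (0.74) and SeV (0.68), the latter 2 not without the first or the second Ctrl library (0.58 and 0.66, and 0.52 and 0.59) and larger without the third (1.35 and 1.29). Its partner Capzb fell with CpGB (-0.55) and LPS (-0.45), calls that were lost without any 1 Ctrl library (-0.52 to -0.35). Among myosin II chains, Myh9, the gene of the non-muscle heavy chain, fell with cGAMP (-0.81; -0.83 and -0.35 without the first and the second Ctrl library, neither passing), and the light-chain genes Myl6, Myl12a and Myl12b did not pass with any single ligand in edgeR with TMM factors (-0.51 to 0.22). Myl6 passed with cGAMP in DESeq2, with RLE factors and with library size alone (-0.47 to -0.35), and library size alone added Myl6 with LPS (-0.45), Myl12a with cGAMP (-0.37) and Myl12b with PAM, LPS and CpGB (-0.74 to -0.65).

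Of the signalling members, Arhgap25, which encodes a GTPase-activating protein for Rac in leukocytes, had the largest single-ligand fold change of the list. It read 540.2, 461 and 557 CPM in Ctrl, 6.56, 35.2 and 11.1 with PAM, 73.4, 81.8 and 49.1 with cGAMP and 291, 274 and 376 with HMW. The PAM and cGAMP libraries lay below all Ctrl libraries. Arhgap25 fell with PAM (-4.74, SE 0.36, edgeR adjusted p = 2.87e-27), cGAMP (-2.93), CpGB (-2.90), LPS (-2.56), SeV (-1.92) and Zymosan (-1.58); HMW (-0.72) did not pass. Rac2, the leukocyte Rac GTPase gene, rose with PAM and CpGB and fell with SeV and cGAMP. It read 540.2, 586 and 499 CPM in Ctrl, 1286, 1121 and 1172 with PAM and 373, 353 and 324 with SeV. All PAM libraries were above all Ctrl libraries. The log2 fold changes were 1.14 (SE 0.16, edgeR adjusted p = 8.87e-10) with PAM, 1.06 with CpGB, 0.63 with LPS (not with library size alone, 0.33), -0.64 with SeV (-0.51 and not passing without the second Ctrl library) and -0.53 with cGAMP (lost without any 1 Ctrl library, -0.52 to -0.39). The Rhoa call with HMW (0.79) was lost without the second (0.93) or the third (0.57) Ctrl library. Iqgap1, a scaffold gene, rose with Zymosan (0.44, 0.31 and not passing with other scalings), and Cdc42 did not pass with any single ligand.

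Adding LPS to cGAMP lowered Zyx, although each of the 2 ligands alone had raised it. The cGAMP libraries read 1439.6, 1624 and 1706 CPM and those with both ligands 569, 623 and 663. The groups did not overlap, and the pair was also below the LPS libraries (789, 798 and 926) but above Ctrl. Against cGAMP alone the log2 fold change was -1.36 (SE 0.14, edgeR adjusted p = 1.29e-15). The same pair against LPS alone gave -0.43 (SE 0.15, edgeR adjusted p = 0.0746) and did not pass, in a comparison in which 3.52% of all genes rose and Marcksl1 (0.83) was the 1 member that did. On the log2 scale the interaction of LPS and cGAMP for Zyx was -2.41 (SE 0.23, edgeR adjusted p = 8.96e-19), where 0 would mean that the log2 effects add up. Beside Zyx, the summed macrophage markers were 9223 CPM with cGAMP (9051 to 9399) and 7516 with both ligands (7431 to 7668), 5 of 6 listed genes having a row, and the 8 dendritic cell markers 7157 and 8506; their part in the result was not tested.

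The list as a whole, Zyx included, split when LPS was added to cGAMP: 9 members rose and 6 fell, beside 8.2% and 4.79% of all tested genes, and 7 rose and 11 fell with library size alone. The median log2 fold change of the members was -0.07 and that of all tested genes 0.01. Of the 15 calls, 10 held in each other scaling and without any 1 of the 6 libraries.

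Beside Zyx, Vcl fell from 110.0, 58.4 and 123 CPM with cGAMP to 35, 20.8 and 54.2 with both ligands. All cGAMP libraries were above all libraries with both ligands. Its log2 fold change was -1.26 (SE 0.41, edgeR adjusted p = 0.0239), which did not pass without the first (-1.24) or the second (-1.02) library of the pair or the first (-1.20) or the third (-1.03) of cGAMP. Talin did not pass at -0.27, with libraries at 293, 292 and 307 CPM and 201, 318 and 221. Flna read 504, 514 and 792 CPM with cGAMP and 403, 359.8 and 361 with both. All cGAMP libraries were above all libraries with both ligands. Its log2 fold change was -0.71 (SE 0.18, edgeR adjusted p = 0.00121), and -0.49 and not passing without the third cGAMP library.

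Of the 2 actins Actg1 passed and Actb did not, and they were not tested against each other. Actb read 39961, 37922 and 33966 CPM with cGAMP and 36837, 38469 and 34643 with both ligands, overlapping values with a log2 fold change of -0.02 that did not pass. Actg1 read 5795, 5633 and 5696 and 4227, 4262 and 4170.2 CPM. All cGAMP libraries were above all libraries with both ligands. Actg1 fell, with a log2 fold change of -0.44 (SE 0.10, edgeR adjusted p = 0.000451). Cotl1 also fell: it read 624, 462 and 595 CPM with cGAMP and 298, 235 and 271 with both. All cGAMP libraries were above all libraries with both ligands. Its log2 fold change was -1.05 (SE 0.19, edgeR adjusted p = 1.41e-06). Wdr1, which had risen with cGAMP alone, fell by 0.63 on the log2 scale (edgeR adjusted p = 0.00457; -0.51 and not passing without the third library of the pair).

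The largest rise was that of Actn1, from 128, 152 and 135 CPM with cGAMP to 289, 367 and 406 with both ligands. All libraries with both ligands were above all cGAMP libraries. Its log2 fold change was 1.37 (SE 0.21, edgeR adjusted p = 1.59e-08). Fscn1 read 156, 228 and 196 and 516, 533 and 469 CPM, a log2 fold change of 1.34 (SE 0.20, edgeR adjusted p = 1.07e-08). Lcp1, which cGAMP alone had lowered, read 944, 1023 and 1068 and 2179, 2179 and 2216 CPM. All libraries with both ligands were above all cGAMP libraries. It rose by 1.11 (SE 0.11, edgeR adjusted p = 1.33e-18). These 3 genes encode proteins that bundle or crosslink filaments, and of the other two in that group Flna fell (above) and Actn4 did not pass at 0.28.

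Membrane linkers rose as well. Marcks read 202, 292 and 307 CPM with cGAMP and 525, 664 and 546 with both ligands. All libraries with both ligands were above all cGAMP libraries. Its log2 fold change was 1.08 (SE 0.17, edgeR adjusted p = 8.62e-08). Msn rose by 0.94 (SE 0.16, edgeR adjusted p = 3.53e-07) and Marcksl1 by 0.87 (SE 0.14, edgeR adjusted p = 3.73e-07), while Ezr at 0.92 did not pass. With libraries thinned to equal totals the Msn value was 0.19 and did not pass. Rac2 read 449, 327 and 362 and 595, 726 and 718 CPM, a log2 fold change of 0.88 (SE 0.17, edgeR adjusted p = 9.07e-06). Tpm4 (0.71) and Tmsb4x (0.39) also rose, but neither passed with library size alone (0.54 and 0.22), without the second cGAMP library (0.49 and 0.28) or without the third library of the pair (0.64 and 0.31). Of the 9 Arp2/3 and coronin genes edgeR called 0, with 2 at an unadjusted p under 0.05 and 1 called by DESeq2. Of the 4 myosin II genes it called 0, with 2 at an unadjusted p under 0.05 and 0 called by DESeq2, and of the 3 capping genes 0, with 1 and 1.

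**Figure D3:**
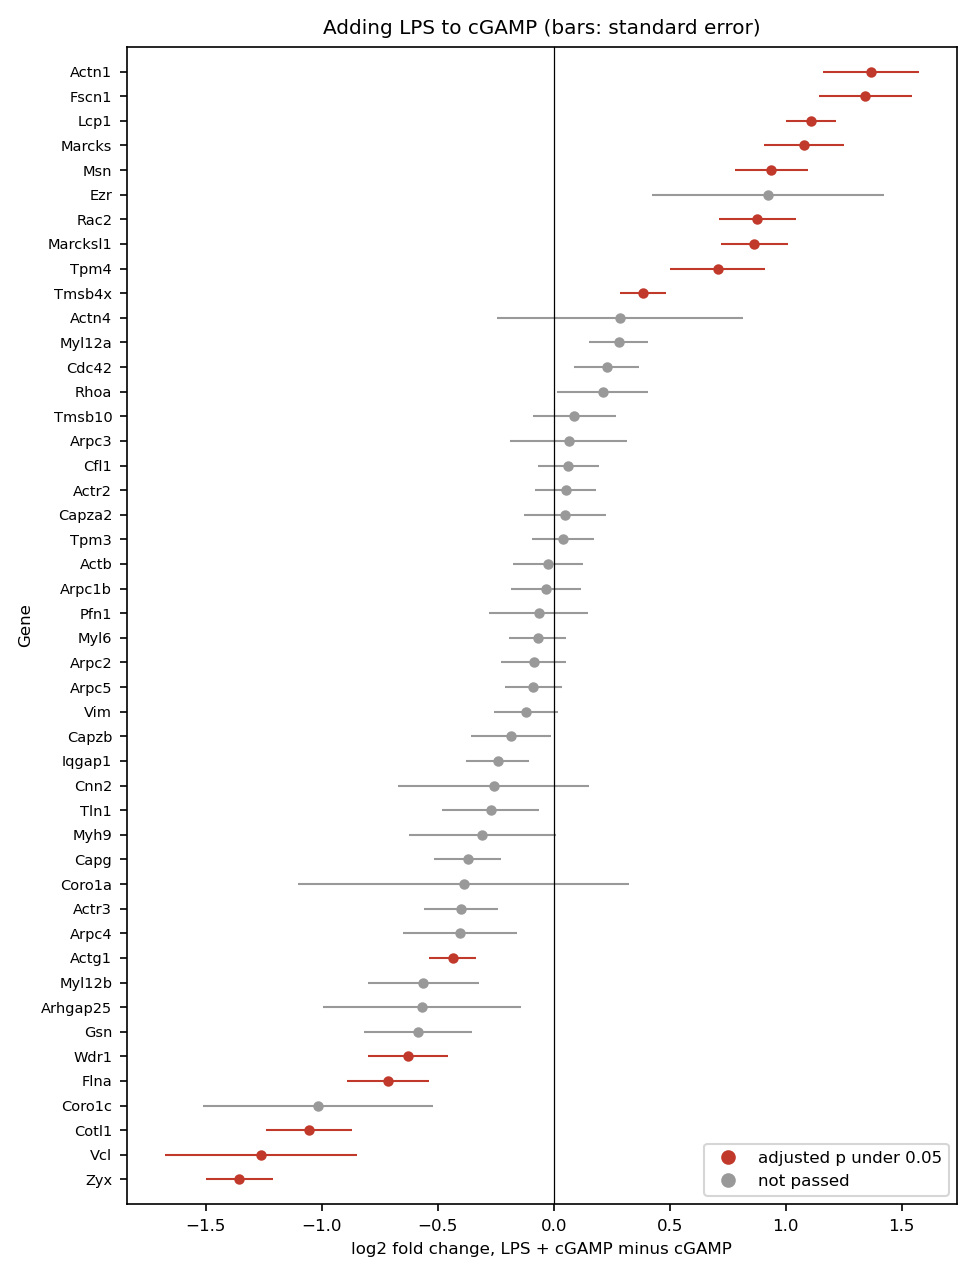
Log2 fold change of the tested members when LPS was added to cGAMP (3 libraries against 3, bars for the standard error), ordered by size and coloured by whether the adjusted p was under 0.05. Actn1 is at the top with 1.37 and Zyx at the bottom with -1.36; with library size alone, 7 members rose and 11 fell in place of 9 and 6.

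The fall of Zyx was also measured in triplets, in libraries that the comparison of the pair did not use. With PAM present, the libraries read 918, 1135 and 957 CPM without LPS and 541, 608 and 600.3 with it. With HMW they read 1554, 1733 and 1343 and 636, 789 and 572, and with Zymosan 1233, 1312 and 1263 and 824, 582 and 649. In all 3 settings the libraries with LPS were below all those without. With SeV they read 1583, 1714 and 1570.0 and 581, 731 and 684 CPM, and with CpGB 764, 837 and 944 and 472, 522 and 509.6. These groups did not overlap either. Log2 fold changes were -1.29 (SE 0.14, edgeR adjusted p = 7.4e-15) with SeV, -1.21 (SE 0.14, edgeR adjusted p = 4.8e-14) with HMW, -0.89 with Zymosan, -0.79 with PAM and -0.76 with CpGB, all 5 passing the test. With the second replicate of every group left out the PAM value was -0.68, and with the third left out the CpGB value was -0.68; neither passed.

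The list as a whole, Zyx included, was less uniform across the triplets. With HMW present 8 members rose and 5 fell (8.39% and 5.72% of all tested genes), with SeV 8 and 11 (6.97% and 6.06%) and with Zymosan 5 and 3 (2.99% and 2.78%). With PAM present, Zyx was the 1 member called by edgeR (0.763% and 0.847%). With CpGB (1.44% and 1.61%), 2 members fell, Zyx and the profilin gene Pfn1 (-0.91); Lcp1 also rose with PAM in DESeq2 (0.33) and with library size alone (0.36), and Lcp1 (0.33 to 0.35) and Actn1 (0.66 to 0.68) rose with CpGB in DESeq2 and with both other scalings. With the second replicate of every group left out, 0 members were called with PAM. Lcp1 changed by 0.94, 1.07 and 0.79 with HMW, SeV and Zymosan, and by 0.30 with PAM and 0.27 with CpGB, where it did not pass. Actg1 gave -0.38 with HMW, -0.44 with Zymosan and -0.53 with SeV.

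Added to a single ligand other than cGAMP, LPS raised Zyx in 4 of 5 cases. It rose from 512, 382 and 450.0 CPM with PAM to 674, 865 and 861 with PAM and LPS, and from 534, 729 and 564 with Zymosan to 1201, 1209.7 and 1411 with Zymosan and LPS. Neither pair of groups overlapped. The log2 fold changes were 1.06 on Zymosan, 0.87 on PAM, 0.73 on HMW and 0.56 on CpGB, the last of which did not pass with library size alone (0.42) or with the first (0.50) or the third (0.41) replicate of every group left out. With library size alone the values on PAM and HMW were 0.57 and 0.42, both passing. Added to SeV, LPS lowered Zyx from 2208, 1993 and 1853 CPM to 1349, 1334 and 1254, a log2 fold change of -0.62 (SE 0.13, edgeR adjusted p = 0.000131). The effect on cGAMP minus the effect on the other ligand, tested as its own contrast, was -2.41 (SE 0.20, edgeR adjusted p = 1.45e-22) for Zymosan, -2.23 for PAM, -2.08 for HMW and -1.92 for CpGB, each past the threshold, where 14%, 19.6%, 8.69% and 6.27% of all genes differed. For SeV it was -0.74 (SE 0.20, edgeR adjusted p = 0.216), which did not pass; 0.0424% of all genes did. The comparisons that form each difference share no library, only the estimate of the spread. Over the list, LPS raised 8 and lowered 14 members on PAM (18.3% and 13.4% of all tested genes, 5 and 19 members with library size alone), 13 and 8 on HMW (17.4% and 13.3%, 10 and 18), 13 and 7 on Zymosan (17.9% and 11.9%, 7 and 21), 8 and 6 on SeV (7.29% and 4.51%, 7 and 10), and 4 and 5 on CpGB (7.88% and 4.45%, 2 and 7). With the same-numbered library of every group left out, the members called were 9 to 10 in place of 14 on SeV, 13 to 18 in place of 20 on Zymosan and 3 to 5 in place of 9 on CpGB.

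**Figure D4:**
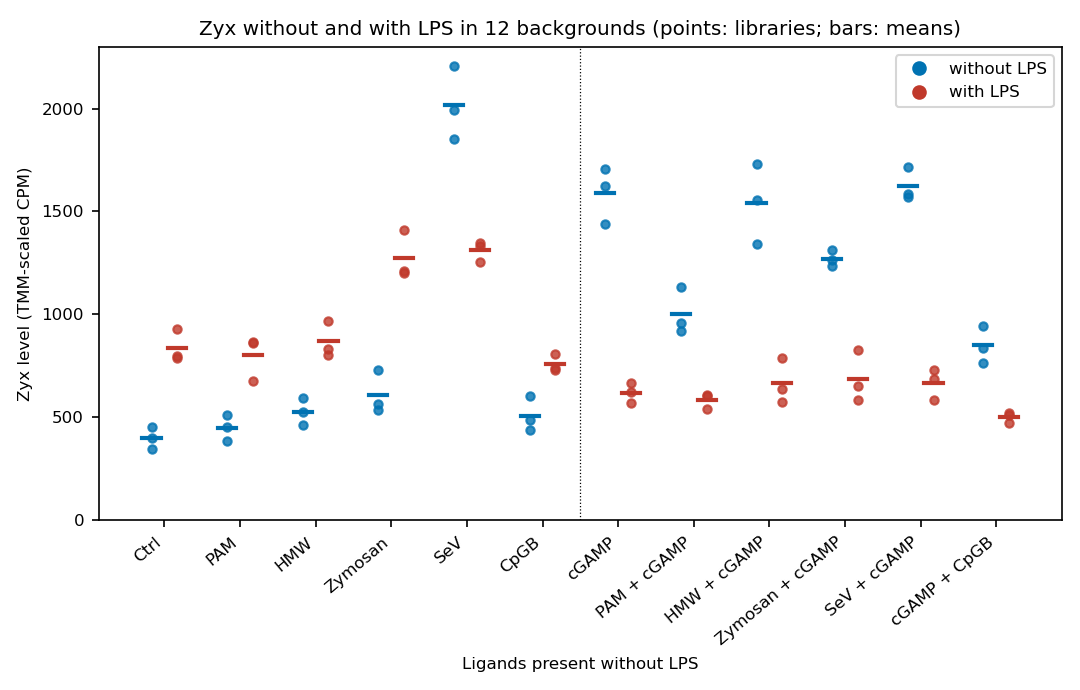
Zyx level (TMM-scaled CPM) without and with LPS on each background, with 3 libraries as points and the mean as a bar. On cGAMP, alone or with a further ligand, and on SeV the level is lower with LPS; on Ctrl, PAM, HMW, Zymosan and CpGB it is higher.

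CpGB and PAM also lowered Zyx when added to cGAMP. The pair of cGAMP and CpGB read 764, 837 and 944 CPM and the pair of PAM and cGAMP 918, 1135 and 957, both below all 3 cGAMP libraries. The log2 fold changes against cGAMP alone were -0.90 (SE 0.14, edgeR adjusted p = 4.18e-08) for CpGB and -0.67 (SE 0.14, edgeR adjusted p = 7.53e-05) for PAM. Zymosan (-0.33), HMW (-0.04) and SeV (0.03) did not pass. Added to SeV, CpGB (-1.04) and PAM (-0.38) lowered Zyx, and Zymosan (-0.38), cGAMP (-0.30) and HMW (0.06) did not pass. The libraries of PAM with SeV (1250 to 1856 CPM) overlapped those of SeV alone (1853 to 2208). Those of Zymosan with SeV (1392 to 1808) lay below them, so the PAM and Zymosan values differ little. These comparisons share the cGAMP or the SeV libraries, and the effect of LPS was not tested against that of CpGB or PAM.

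Interactions of 2 ligands were tested in each of the 21 pairs. Over the list, 76 negative and 28 positive interactions passed among 966 tests, 7.87% and 2.9%, beside 3.5% and 1.08% of the 99120 tests over all genes, and 15 of the 21 pairs held at least 1 member call. All use the 3 Ctrl libraries with a positive sign, so a Ctrl mean that is low or high moves all 21 together. Arhgap25, whose fold change with PAM alone was the lowest of the list, had 14 positive interactions. It had a median of 12.5 UMIs per library, with 1 the lowest count, and a mean of 17.6 CPM with PAM. How far such low counts limit a further fall in a pair was not tested. Marcksl1 had 13 negative, Actr2 11 and Zyx 8. For Zyx the values were -2.41 for LPS and cGAMP, -2.29 for SeV and cGAMP, -1.67 for LPS and SeV, -1.39 for SeV and CpGB, -1.26 for cGAMP and CpGB, -0.97 for Zymosan and SeV, -0.93 for Zymosan and cGAMP and -0.80 for PAM and cGAMP. Each of these 8 pairs contains SeV or cGAMP, the ligands with the highest single levels of Zyx. For LPS and cGAMP, 2 members were positive and 8 negative (2.71% and 9.05% of all tested genes, 4 and 6 members with library size alone), with Actb at -1.14, Actr2 at -1.30 and Marcksl1 at -1.67 among the negative and Arhgap25 at 1.99 among the positive, the last not passing without the third library of the pair.

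A pair was above both of its single ligands in 8 member calls (0.805% of all gene-by-pair tests) and below both in 4 (0.0999%). Marcksl1 accounted for 4 of the 8: it was above both singles in LPS with cGAMP, PAM with cGAMP, PAM with SeV and cGAMP with CpGB. In LPS with cGAMP it read 1908, 2124 and 1796 CPM, against 1012, 1125 and 1119 with LPS and 1146, 1058 and 1000.4 with cGAMP. All libraries with both ligands were above all LPS libraries. All libraries with both ligands were above all cGAMP libraries. Zyx was above both singles in Zymosan with CpGB and in LPS with Zymosan. In Zymosan with CpGB it read 1016, 1081 and 1144 CPM, against 534, 729 and 564 with Zymosan and 437, 602 and 484 with CpGB. The libraries of the pair lay above those of both singles, with log2 differences of 0.82 and 1.07. Vim was above both in LPS with Zymosan and Zymosan with cGAMP, while Cotl1 in PAM with cGAMP, Flna in PAM with LPS and Marcks in Zymosan with cGAMP and with SeV were below both. The 4 calls below both were lost with no count filter, with thinning and with the second or the third replicate of every group left out, and the Vim call in LPS with Zymosan was lost with DESeq2, with RLE factors, with library size alone and without any 1 replicate of every group. Vim in Zymosan with cGAMP and Zyx in LPS with Zymosan were lost with thinning and without the second or the third replicate, Vim also with library size alone. Zyx in Zymosan with CpGB and Marcksl1 in PAM with SeV were lost with thinning alone, and Marcksl1 in cGAMP with CpGB without the third replicate alone.

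Across all 56 combinations against Ctrl, 5 members gave the same call every time, as did 3.03% of all 4720 tested genes. Of all tests of a gene in a pair, 15.9% were higher and 11.2% lower than Ctrl, and of those in a triplet 18.1% and 13.2%. Msn, Marcksl1 and Actr2 were higher and Gsn and Arhgap25 lower in all 56. Fscn1 was higher in 54, Zyx and Actb in 52 each, and Tln1 and Cotl1 lower in 53 each. Tln1 did not pass the test of any difference between the 64 groups (edgeR adjusted p = 0.12). Its 53 calls all rest on the same 3 Ctrl libraries. Of the 46 tested members, 22 were called in the upward direction and never downward, 14 downward and never upward, 6 in both directions, and 4 (Cnn2, Arpc3, Arpc5 and Myl12a) passed in none by edgeR. Over all tested genes these shares were 33.8%, 35.4%, 3.75% and 27.1%. All 56 comparisons share the 3 Ctrl libraries, so these counts are not independent of each other. They were made with TMM factors only and were not recomputed with other scalings. The mean TMM factor was 1.27 in Ctrl and 0.871 in PAM with HMW and cGAMP. The smallest log2 fold change of Actr2 in a triplet was 0.49.

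**Figure D5:**
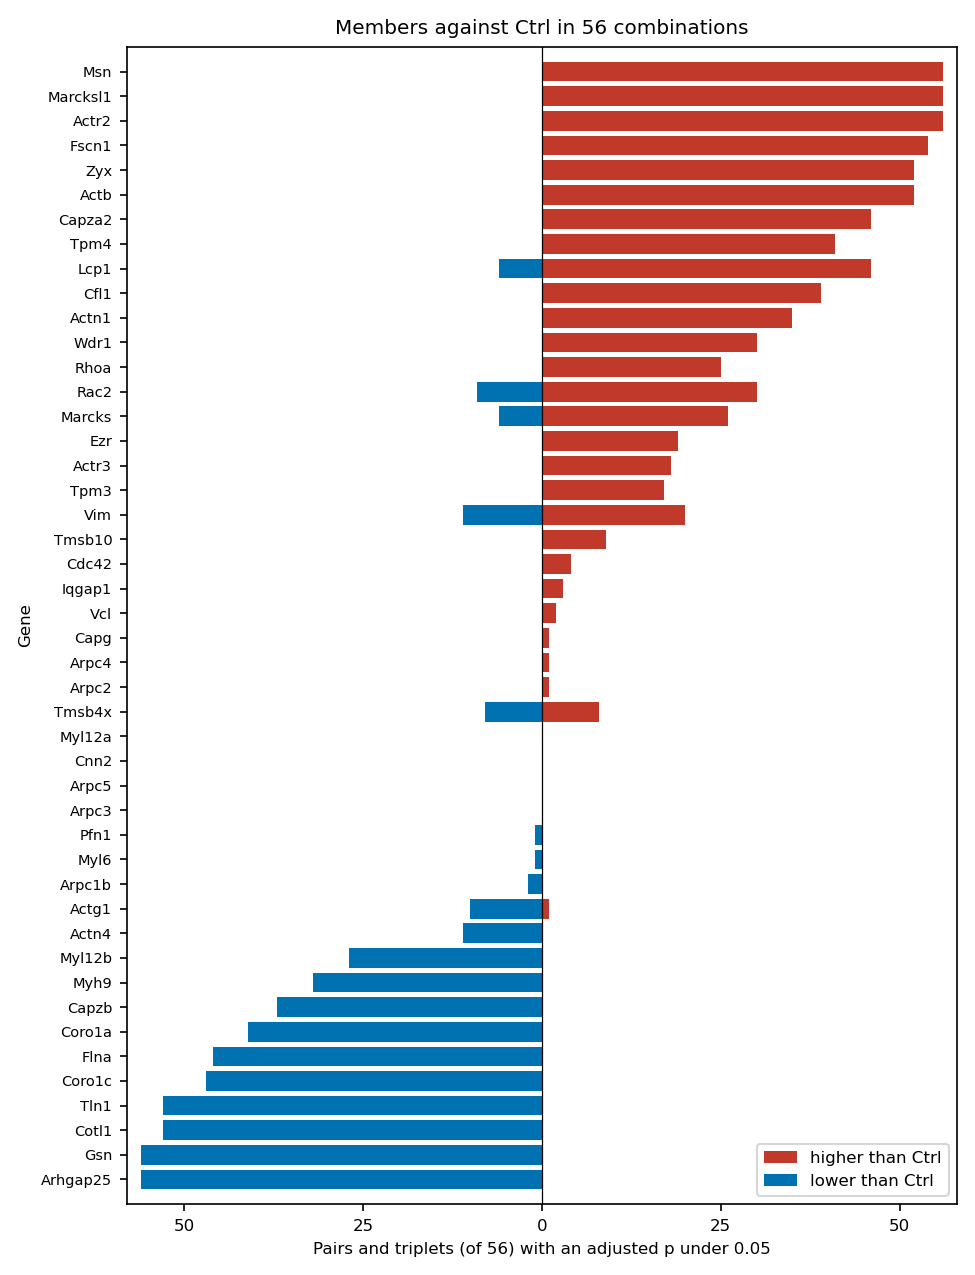
Number of the 56 combinations (21 pairs and 35 triplets, x axis) in which each member (y axis) was higher (right) or lower (left) than Ctrl at an adjusted p under 0.05. Msn, Marcksl1 and Actr2 reach 56 on the higher side and Gsn and Arhgap25 on the lower side, and Zyx is higher in 52. The counts were not recomputed with other scalings.

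The average effect of a ligand over the 22 backgrounds of up to 2 other ligands, which rests only in part on Ctrl, gave a different ranking for Zyx. SeV raised it by 0.71 (SE 0.03, edgeR adjusted p = 2.74e-57) and Zymosan by 0.26 (SE 0.03, edgeR adjusted p = 2.15e-13), cGAMP by 0.15 (0.02 and not passing with library size alone), while CpGB (-0.24, SE 0.03, edgeR adjusted p = 7.96e-12) and PAM (-0.18) lowered it and LPS (-0.06) did not pass, although LPS passed as a fall in DESeq2, with RLE factors and with library size alone (-0.19 to -0.10), with libraries thinned to equal totals (-0.12) and without the third replicate of every group (-0.12). Over the list LPS raised 17 and lowered 21 members (29.6% and 29.3% of all tested genes, 9 and 26 members with library size alone). The counts were 12 and 23 for cGAMP (28.2% and 29.7%, 3 and 32), 13 and 20 for Zymosan (21.3% and 20.4%, 10 and 25), 15 and 13 for PAM (21.2% and 18.7%, 9 and 26), 14 and 9 for SeV (20.6% and 16.7%, 6 and 20), 11 and 22 for CpGB (19% and 17.7%) and 5 and 5 for HMW (7.94% and 2.1%, 4 and 8). RLE factors gave 13 and 25 for LPS, 9 and 11 for SeV, 7 and 23 for cGAMP and 4 and 7 for HMW. Ezr rose most with Zymosan (1.51, SE 0.08, edgeR adjusted p = 2.5e-42), followed by Vim (0.77). Marcksl1 rose most with cGAMP (1.05) and Fscn1 with LPS (0.86), PAM (0.56) and CpGB (0.70). Coro1a had the largest fall with LPS (-1.46, SE 0.17, edgeR adjusted p = 1.45e-14), on a group mean of 66.4 CPM in Ctrl and 18.1 in the median group.

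How far the members varied over the 64 groups differed widely. In the test of any difference between groups, 69.3% of all tested genes passed. So did every tested member except Tln1, Arpc3 and Myl12a (edgeR adjusted p = 0.12, 0.34 and 0.0503). The SD of the 64 group means of log2 CPM was largest for Arhgap25 (0.72), Marcksl1 (0.70), Ezr (0.63), Coro1c (0.61), Fscn1 (0.59) and Zyx (0.55), and smallest for Myl12a (0.10), Arpc5 (0.11) and Tpm3 (0.13). The median over all tested genes was 0.37, and 15 of the 46 members were above it. This SD includes counting noise, which is larger for genes of few counts. The SD within groups had a median of 0.46 over all tested genes. It was 0.55 for Coro1c and 0.41 for Ezr, on medians of 9 and 8 UMIs per library, and 0.18 for Zyx. Arhgap25, Coro1a, Flna, Gsn, Tln1 and Capzb had their highest group mean in Ctrl, and Zyx, Marcksl1, Fscn1, Msn, Actr2, Actb, Capza2, Wdr1 and Cfl1 their lowest. The correlation of group means between members, over 64 groups that share libraries with no other group, ran from -0.91 for Fscn1 with Cotl1 to 0.90 for Tmsb4x with Rac2, with a median of 0.02 over 1035 pairs.

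The members most like Zyx over the 64 group means of log2 CPM were Capg (Pearson r of 0.62), Actr3 (0.57), Actg1 (0.51), Vim (0.48) and Tmsb10 (0.47). Among all tested genes they were Dck (0.77), Gbp8 (0.77), Aldh1b1 (0.76), Akr1a1 (0.76) and Scimp (0.75). Gbp8, an interferon-inducible guanylate-binding protein gene, had group means of 4.16 CPM in Ctrl, 74.4 with cGAMP and 41.7 with LPS and cGAMP, and Dck, a nucleoside kinase gene, 24.9, 168 and 111. These correlations describe the 64 points, which differ in ligands and in depth.

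The 3 members below the count filter had too few counts for the test. The calponin gene Cnn3 had 362 UMIs over all libraries, the cyclase-associated protein gene Cap1 540 and Was, the gene of the Wiskott-Aldrich syndrome protein that activates the Arp2/3 complex, 348. Of Was, 3 UMIs were counted in the 3 Ctrl libraries and 4 in the 3 LPS libraries, a ratio of 0.635 with an exact 95% interval of 0.108 to 4.34 after depth, which covers counting error only; a difference was not detectable at this depth. When LPS was added to cGAMP, Cnn3 had 8 UMIs against 3 (ratio 2.46, interval 0.590 to 14.4), and the intervals on SeV (9 against 3), on HMW (4 against 1) and in the triplets with PAM (5 against 2) and SeV (7 against 2) also included 1. The intervals lay above 1 in 4 other comparisons. On CpGB it had 18 in the 3 libraries with LPS and 0 without, a ratio whose interval starts at 4.41. On Zymosan it had 14 against 1 (ratio 11.8, interval 1.79 to 497) and on PAM 12 against 2 (5.51, 1.23 to 50.7). In the triplet with CpGB and cGAMP it had 9 with LPS against 1 without (10.8, 1.4997 to 474). In the edgeR fit without the count filter the adjusted p was 0.00072 on CpGB, 0.0338 on Zymosan, 0.146 on PAM and 0.383 in that triplet.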

How the data were processed

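RNA of 100000 cells per well was reverse transcribed, pooled, tagmented and sequenced, per the labels' protocols. The deposited values are whole-number UMI counts per gene and library, not normalized; BWA 0.7.15 and mm10 are named in the submitters' processing notes, and the UMI collapsing rule, the annotation and the treatment of reads that fit several genes are not given in the sources used here, so counts of close relatives (Actb and Actg1, Myl12a and Myl12b, Tmsb4x and its copies, Tpm3) are uncertain. Groups were taken from the sample labels. The members and all further gene lists were chosen with earlier results of these data known.

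All libraries entered 1 fit in edgeR 4.0.16 (R 4.3.3, limma 3.58.1) with 1 coefficient per group, TMM factors, 128 residual degrees of freedom and the quasi-likelihood F-test; filterByExpr kept 4720 of 23481 genes, which hold 95.7% of the UMIs. P-values were adjusted by Benjamini-Hochberg over these genes within each contrast, and the standard error (SE) is the log2 fold change divided by the square root of F. The common biological coefficient of variation was 10.3%. A pair was beyond both single ligands where both differences had that sign and the larger p passed. The analysis was tested on simulated data. No 2 libraries of a group held identical counts. Totals of 46564 to 610234 UMIs per library limit genes such as Vcl to a few counts each. The alternatives were DESeq2 1.42.0, RLE factors, library size alone, no filter, libraries thinned to equal totals, a replicate block, each replicate left out and a log2 fold change of at least 1. Named genes were Zyx and its neighbours in the list (Actb, Actg1, Vcl, Tln1, Flna), the members with the largest rises and falls in each comparison (3 of each for single ligands, 5 for LPS added to cGAMP, 2 for average effects), those that varied most or least, those most like Zyx and those below the filter; other members are named to account for each role. A further list of genes is not reported here.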

Additional observations from a re-analysis of the deposited data

Results flagged for a closer look

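Of the 15 members that changed when LPS was added to cGAMP, 11 differed in the effect of LPS between cGAMP and at least 1 other single ligand, each by a test of the difference itself (edgeR, adjusted over all tested genes; the effect on cGAMP minus the effect on the other ligand). For Zyx the difference was -2.23 for PAM, -2.08 for HMW, -2.41 for Zymosan and -1.92 for CpGB on the log2 scale, LPS lowering Zyx on cGAMP and raising it on these 4. For Lcp1 it was 1.31 for PAM, 0.50 for HMW, 0.99 for Zymosan and 0.99 for CpGB, with LPS effects of 1.11 on cGAMP, -0.20 on PAM and 0.61 on HMW. For Actn1 it was 1.09 for PAM, 0.97 for Zymosan and 1.00 (0.999588 before rounding) for CpGB. Marcks differed by 0.81 for PAM and 0.86 for CpGB, Msn by 0.70 for PAM and 0.71 for CpGB, and Fscn1 by 0.76 for PAM. Rac2 differed by 1.57 for PAM and 1.30 for CpGB, LPS raising it on cGAMP by 0.88, with effects of -0.69 on PAM and -0.42 on CpGB. Tpm4 differed by 1.13 for PAM and 0.78 for Zymosan, and Tmsb4x by 0.72 for PAM and 0.67 for CpGB. Marcksl1 differed by -0.92 for HMW. Actg1, which fell on cGAMP, differed by -0.51 for HMW and -0.42 for Zymosan. Of all tested genes, 19.6% differed in this way for PAM, 8.69% for HMW, 14% for Zymosan and 6.27% for CpGB. The 15 were chosen by their effect on cGAMP, which is part of each difference; of the 613 tested genes called there, 62% differed for at least 1 ligand. Over all 46 tested members, 18 differed for at least 1 ligand, beside 24.6% of all tested genes: 15 for PAM, 7 for HMW, 9 for Zymosan and 8 for CpGB. For SeV edgeR called 0, with 3 at an unadjusted p under 0.05, and DESeq2 was not run on these differences. The 7 beyond those above (Actb, Vim, Pfn1, Tmsb10, Actr2, Actr3 and Arpc5) did not pass on cGAMP itself and differed by -0.93 to 0.95. These comparisons share the libraries of cGAMP and of LPS with cGAMP.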

How the results depend on the processing

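The called fold changes recomputed for the genes named in each comparison kept their sign under the alternatives run. Of the other member calls 18 changed sign, 15 of them average effects, such as Tpm4 with LPS (0.12 to -0.01) and Capg with cGAMP (0.08 to -0.05), all with library size alone or thinning, and so did values that had not passed: with library size alone, Actg1 with LPS on HMW went from 0.08 to -0.23 and Actb in the average effects of PAM and cGAMP from 0.01 to -0.12, all then passing. The balance of rises and falls among the members also changed. Of the tests of single named genes under the alternatives, Zyx included, 1015 kept the call and 155 lost it. With a log2 fold change of at least 1 as well, the members called against Ctrl were 7 for PAM, 12 for LPS, 0 for HMW, 3 for Zymosan, 6 for SeV, 7 for cGAMP and 9 for CpGB. For HMW (1 member), no filter gave 3, library size alone 0, thinning 0 and the replicate block 2, while DESeq2 and RLE factors each gave 1 fall in place of the rise. For Zymosan (13), DESeq2, RLE factors and library size alone gave 8 each and thinning 5. Thinning, which left 1823 testable genes, gave 27 in place of 43 member calls for LPS added to cGAMP in triplets, 15 in place of 23 for the average effect of SeV, and 3 in place of 8 pair calls above both singles; the 4 calls below both became 0 with no filter and 11 with library size alone. In triplets, the thinned value for Zyx was -0.61 with PAM and -0.71 with CpGB, neither passing, and the effect of LPS on CpGB was 0.42 and did not pass with library size alone.

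With each replicate left out in turn, in every group or in 1 group alone, the members called were 15 to 24 for LPS, 0 to 1 for HMW, 4 to 11 for Zymosan, 9 to 14 for SeV, 11 to 13 for cGAMP, 5 to 11 for the interaction of LPS and cGAMP, 6 to 12 for the average effect of HMW and 15 to 20 for that of SeV. Calls above both singles were 4 to 8 and calls below both 0 to 2. Zyx ran from -0.84 to -0.68 with PAM in triplets, -0.78 to -0.68 with CpGB in triplets and 0.41 to 0.72 for LPS on CpGB, not passing without the second, the third, and the first or the third, respectively. Over single comparisons of LPS added in triplets, 4 to 7 members in place of 8 were called with Zymosan and 0 to 3 in place of 2 with CpGB. For these the cause was not tested.

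In 18 comparisons, same-numbered deviations correlated at -0.04 to 0.04, and 0 comparisons had all 3 over 0.1. Counting noise also enters these deviations, so they cannot show whether libraries of the same replicate number share an effect. In most of the 35 triplets, though not in all, the second library had the largest share of UMIs from the members. With the replicate block, 15 members changed when LPS was added to cGAMP, and Zyx was at -1.35. Against Ctrl the block gave 13 rises and 2 falls for Zymosan, 11 and 10 for cGAMP and 13 and 10 for CpGB. Without the block these were 11 and 2, 10 and 9, and 12 and 7. The splits for PAM, LPS and SeV were the same with and without the block. A fit of the 12 libraries of Ctrl, LPS, cGAMP and the pair alone called 19 members there and 15 for the interaction. Few counts limit Vcl, Coro1a, Coro1c, Actn4, Ezr, Cnn2, Arhgap25, Cnn3, Cap1 and Was.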

Other observations

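Further cytoskeletal genes were read from 5 lists beside the members. When LPS was added to cGAMP, where 13% of all tested genes changed, the list of zyxin relatives and adhesion-site genes had 13 tested genes, of which 1 rose and 2 fell. Vasp, an Ena/VASP gene whose product binds zyxin, rose from 259 ± 38.6 CPM (mean ± SD, n = 3) to 373 ± 3.14, a log2 fold change of 0.52 (SE 0.19, edgeR adjusted p = 0.0449). Fermt3, the gene of the leukocyte integrin activator kindlin-3, fell from 152 ± 56.2 to 53.1 ± 7.08 CPM (-1.54, SE 0.34, edgeR adjusted p = 0.000244). Pdlim5, a PDZ and LIM-domain gene, fell from 120.2 ± 25.1 to 55.2 ± 23.6 CPM (-1.23, SE 0.39, edgeR adjusted p = 0.0186). The median log2 fold change of the 13 was -0.31, against 0.01 over all tested genes.

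Among 16 other turnover and bundling genes 3 rose and 1 fell: Plek, the gene of pleckstrin (1.60, SE 0.11, edgeR adjusted p = 6.54e-32), Tagln2, a transgelin gene (0.70, SE 0.12, edgeR adjusted p = 8.85e-07) and Dbnl, the gene of a drebrin-like adaptor (0.56, SE 0.20, edgeR adjusted p = 0.0449), against the monomer-binding twinfilin gene Twf2 (-1.60, SE 0.57, edgeR adjusted p = 0.0437). DESeq2 called 2 of these 16. Of 8 tubulin genes 1 fell, Tuba1b (-0.80, SE 0.19, edgeR adjusted p = 0.0009), and of 7 tested genes of the serum response factor pathway 1 fell, Fos (-1.89, SE 0.50, edgeR adjusted p = 0.00309). Of 10 WAVE, WASP and formin genes edgeR called 0, with 0 at an unadjusted p under 0.05 and 0 called by DESeq2.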
